A study of Mus musculus with 8 samples.

Results

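Adipocyte genes for lipid storage, lipid release and secreted hormones were followed in inflamed and control mouse paws. The 10 genes (Plin1, Plin4, Cidec, Pnpla2, Lipe, Pck1, Fabp4, Pparg, Adipoq and Lep) were chosen by name as adipocyte genes, of 19938 genes named on the array. The choice was made with earlier results of these data known. A gene was read from the probe set whose annotation gives that symbol alone, with the highest mean signal taken where several do. Each of the 10 had 1 such probe set. RNA came from excised paws of male DBA1/J mice, 8 to 10 weeks old, in 4 groups of 8 mice, and was hybridised to Affymetrix Mouse Gene 1.0 ST arrays, 2 arrays per group and 8 in all. Mice with collagen-induced arthritis (CIA) received chicken type II collagen (150 µg) emulsified with complete Freund adjuvant into the skin at the tail base, and a booster in incomplete adjuvant 3 weeks later. Adjuvant mice received the same adjuvants without collagen, so all 4 groups carried adjuvant. Mice of the groups CIA+MLIF and adjuvant+MLIF were also given MLIF, the monocyte locomotion inhibitory factor, an anti-inflammatory pentapeptide from Entamoeba histolytica, as weekly nasal doses. The labels give 9 weeks of MLIF for adjuvant+MLIF and state no number of weeks for CIA+MLIF. The sample labels place tissue collection 4 weeks after the booster, whereas the series text says before it. Whether an array held the RNA of 1 mouse or of several is not stated. The p-values thus measure no more than the spread between arrays within groups, pooled over the 4 groups.

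White adipocytes store triglyceride in a lipid droplet coated by perilipins and enlarged by Cidec. They release fatty acids through lipases that act in sequence, Pnpla2 and then Lipe, and secrete hormones that include adiponectin and leptin. The nuclear receptor Pparg, acting as a dimer with RXR and together with C/EBP factors, drives formation of these cells and is known to activate Plin1, Cidec, Pck1, Fabp4 and Adipoq. Paws hold fat under the skin, around joints and in bone marrow.

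The start sites of 3 genes are shown because they stand for the regulator and the hormones of the set. Windows of 300 bases (250 before and 50 after the gene start, RefSeq, build GRCm38.p6) were found for 9 of the 10 genes, 13 windows in all, and not for Fabp4. Capitals mark the motifs found on either strand. In Lep they mark the palindrome TTGCGCAA bound by C/EBP factors, with its first base 55 bases before the start, in Adipoq 3 CCAAT boxes (read as CCAAT or ATTGG), and in Pparg a CCAAT box, a TATA box (TATAAA, here read as TTTATA) and the nuclear receptor site AGGTCA, which begins 9 bases before the start. The windows are chr6:29059971-29060270 (plus strand) for Lep, chr16:23146286-23146585 (plus strand) for Adipoq and chr6:115362099-115362398 (plus strand), 1 of 3 windows of Pparg.
Lep: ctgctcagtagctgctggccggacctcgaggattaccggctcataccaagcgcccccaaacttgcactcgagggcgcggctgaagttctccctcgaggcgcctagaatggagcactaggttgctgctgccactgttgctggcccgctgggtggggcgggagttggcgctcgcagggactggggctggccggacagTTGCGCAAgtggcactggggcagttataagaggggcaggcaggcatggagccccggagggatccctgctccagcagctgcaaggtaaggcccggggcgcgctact
Adipoq: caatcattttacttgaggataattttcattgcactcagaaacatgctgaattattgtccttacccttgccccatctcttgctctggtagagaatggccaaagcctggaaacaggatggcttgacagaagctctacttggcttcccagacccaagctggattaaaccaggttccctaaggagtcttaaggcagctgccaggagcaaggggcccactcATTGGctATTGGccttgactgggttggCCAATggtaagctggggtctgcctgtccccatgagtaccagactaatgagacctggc
Pparg: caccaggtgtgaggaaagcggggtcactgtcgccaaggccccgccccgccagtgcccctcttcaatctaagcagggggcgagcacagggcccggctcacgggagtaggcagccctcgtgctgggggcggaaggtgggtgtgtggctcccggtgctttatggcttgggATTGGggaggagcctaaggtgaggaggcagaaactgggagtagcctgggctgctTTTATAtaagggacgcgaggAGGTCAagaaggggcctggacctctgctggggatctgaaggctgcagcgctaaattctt
Over both strands, TTGCGCAA was found in 0.183% of all 32851 promoter windows of this length, and among the 10 genes in Lep. The site AGGTCA was found in 16.3% of all windows and among the 10 genes in 2 windows of Pparg. Its direct repeat with 1 base between (AGGTCANAGGTCA), which contains that site, was found in 0.0396% of all windows and in none of the 13. CCAAT was found in Adipoq, Plin4 and Pparg and in 37.4% of all windows, TATAAA in Pparg and in 13.6%, and CACGTG (the E-box) in Lipe and in 7.15%. A match, or its lack, describes these letters in these windows and says nothing about binding in the paws.

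Values are log2 signals as deposited. The median signal of the 28944 tested probe sets was 7.07 to 7.10 on 7 arrays and 6.66 on CIA array 1. For this reason the median change of all probe sets was -0.25 in CIA against adjuvant and 0.24 in CIA+MLIF against CIA, and changes are set against these shifts below. In CIA against adjuvant, 1245 probe sets passed as higher and 4108 as lower; after quantile normalization the split was 4176 and 3951, and after centring each array on its median 3876 and 4092. In CIA+MLIF against CIA the split was 3315 higher and 942 lower, with 3318 and 3771 after quantile normalization and 3479 and 3505 after centring. Replicate arrays correlated at r = 0.988 to 0.999 across probe sets, and the adjuvant+MLIF arrays differed least from each other (SD of the differences 0.0936, against 0.207 to 0.324 in the other groups). This small spread enters the variance pooled over all 4 groups, on which every comparison rests. The CIA arrays differed most from each other (0.324), so the pooled SE can be too small for comparisons that include CIA. The median of the array's control entries, 5.88 to 6.44, served as a guide to background.

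All 10 genes were lower in the arthritic paws than in adjuvant paws, by 1.71-fold (Pparg) to 2.97-fold (Plin1). In MLIF-treated arthritic paws, 7 of the 10 were higher than in untreated arthritic paws, by 2.19-fold (Lipe) to 2.87-fold (Plin1). The other 3, Fabp4, Pparg and Adipoq, were 1.51 to 1.79 times the CIA level and did not pass the test. These folds include the shift of all probe sets. Relative to that shift, the log2 changes of the 10 genes in CIA against adjuvant ran from -0.53 (Pparg) to -1.33 (Plin1). Those in CIA+MLIF against CIA ran from 0.35 (Pparg) to 1.28 (Plin1). A change passed at a limma adjusted p under 0.05 over all 28944 probe sets. In CIA against adjuvant 10 of 10 genes passed as lower, against 14.2% of all probe sets (18.5% in either direction), and in CIA+MLIF against CIA 7 of 10 passed as higher, against 11.5% (14.7% in either direction). Because the 10 genes were chosen with earlier results known, the shares set beside their counts, here and below, describe the set and test nothing. Both comparisons use the same CIA arrays, so a low CIA value enters each of them. In a whole paw, fewer adipocytes and less RNA per adipocyte cannot be told apart.

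**Figure D1:**
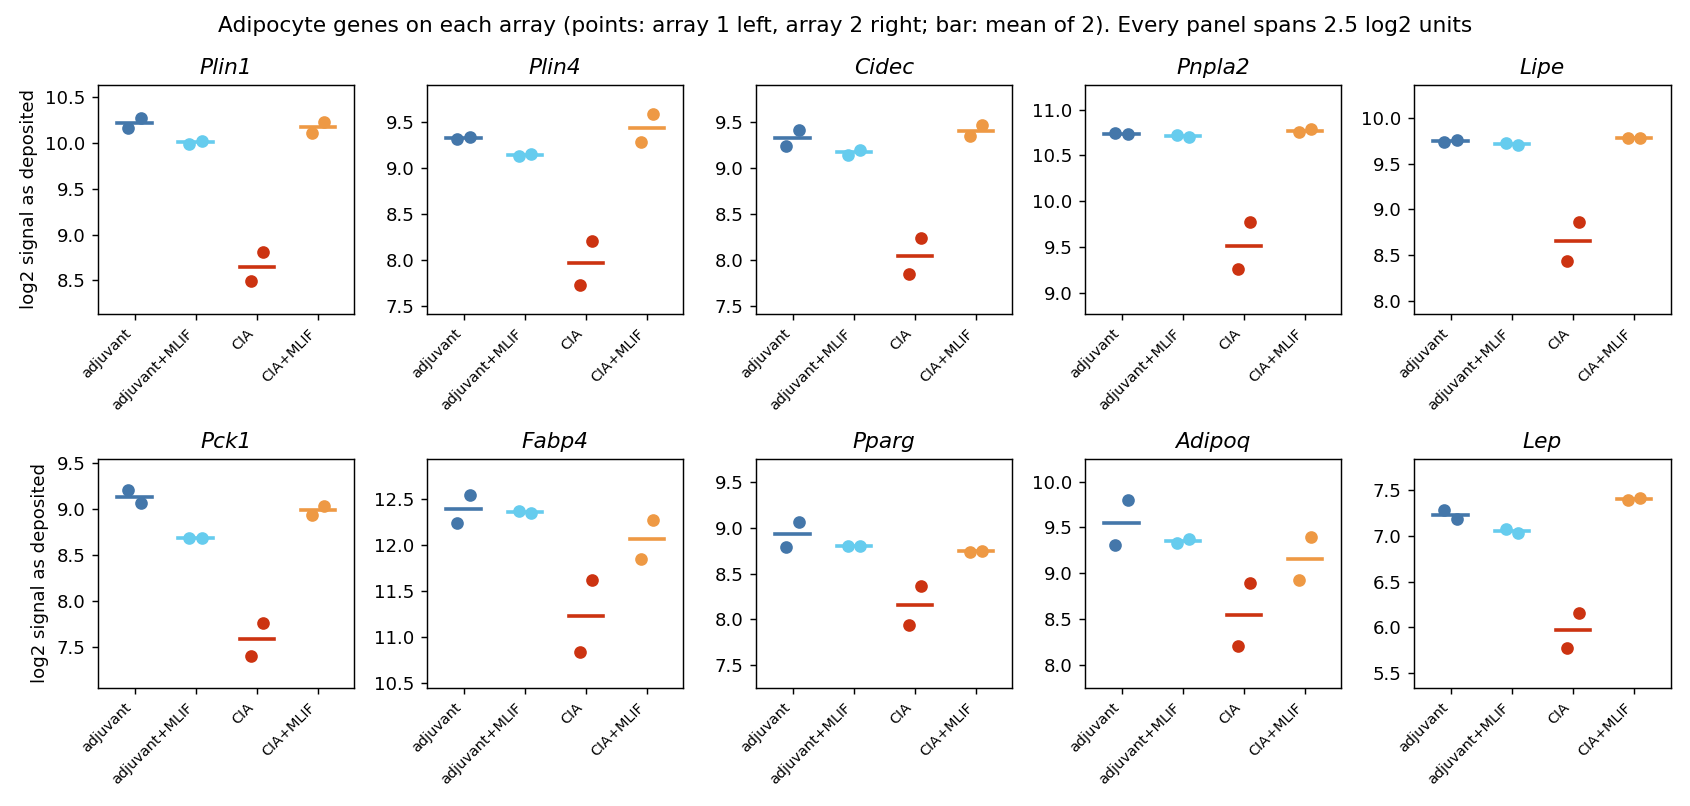
Log2 signal of each of the 10 genes (vertical axis, every panel 2.5 units high) on the 2 arrays of each group (points) with the group mean (bar). Both CIA arrays lie below the other 6 arrays in all 10 panels, and the CIA arrays differ most for Fabp4 (10.84 and 11.62).

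Among the droplet coat proteins, Plin1, which guards the droplet surface and gates lipase access, read 10.17 and 10.28 on the adjuvant arrays, 9.99 and 10.02 with adjuvant+MLIF, 8.49 and 8.81 in CIA, and 10.11 and 10.23 in CIA+MLIF. Both CIA arrays were more than 1 unit below every other array, and the CIA+MLIF arrays overlapped those of adjuvant. Its log2 change was -1.57 (SE 0.16, limma adjusted p = 2.04e-04) in CIA against adjuvant and 1.52 (SE 0.16, adjusted p = 3.94e-04) in CIA+MLIF against CIA. Plin4, a perilipin of adipocytes and muscle that coats small, growing droplets, read 9.32 and 9.34, then 9.13 and 9.15, then 7.73 and 8.21, then 9.29 and 9.59 in the same group order. It fell by 1.36 (SE 0.19, adjusted p = 0.00129) in CIA and was higher by 1.47 (SE 0.19, adjusted p = 0.00121) in CIA+MLIF than in CIA. Cidec, which joins droplets into a larger one, read 9.24 and 9.42 in adjuvant, 9.15 and 9.20 in adjuvant+MLIF, 7.85 and 8.24 in CIA, and 9.35 and 9.47 in CIA+MLIF. Its changes were -1.29 (SE 0.17, adjusted p = 9.92e-04) and 1.37 (SE 0.17, adjusted p = 9.72e-04). For all 3 coat genes the groups compared did not overlap in either comparison, as was the case for 44.7% of all probe sets (lower in CIA) and 40.7% (higher in CIA+MLIF).

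The triglyceride lipases fell as well. Pnpla2 (adipose triglyceride lipase, the first step of lipolysis) read 10.74 and 10.73 in adjuvant, 10.72 and 10.70 in adjuvant+MLIF, 9.25 and 9.77 in CIA, and 10.76 and 10.78 in CIA+MLIF. The 6 arrays outside CIA thus lay within 0.1 of each other, while the CIA arrays lay well below them and apart from each other. Its log2 changes were -1.22 (SE 0.18, adjusted p = 0.00182) in CIA against adjuvant and 1.26 (SE 0.18, adjusted p = 0.00216) in CIA+MLIF against CIA. Lipe (hormone-sensitive lipase, which takes the next fatty acid) read 9.74 and 9.75, 9.72 and 9.71, 8.43 and 8.87, and 9.78 and 9.78, again in the order adjuvant, adjuvant+MLIF, CIA and CIA+MLIF. It fell by 1.10 in CIA (SE 0.17, adjusted p = 0.00219) and was 1.13 higher in CIA+MLIF (SE 0.17, adjusted p = 0.00261). Both lipases are also made in skeletal muscle, whose markers are given below.

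Pck1, the cytosolic PEP carboxykinase that supplies glycerol for re-esterifying fatty acids in fat, read 9.21 and 9.07 in adjuvant, 8.69 and 8.68 in adjuvant+MLIF, 7.40 and 7.76 in CIA, and 8.94 and 9.04 in CIA+MLIF. Its arrays in adjuvant+MLIF lay below those of adjuvant and of CIA+MLIF, by more than the lipases' arrays did. The change was -1.56 (SE 0.16, adjusted p = 2.70e-04) in CIA against adjuvant and 1.41 (SE 0.16, adjusted p = 7.12e-04) in CIA+MLIF against CIA. In adjuvant+MLIF against adjuvant it was -0.45 (SE 0.16, unadjusted p = 0.0227 by limma), which did not pass (adjusted p = 0.999).

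Fabp4, the fatty acid carrier of adipocytes that macrophages and capillary endothelium also make, read 12.25 and 12.55 in adjuvant, 12.37 and 12.35 in adjuvant+MLIF, 10.84 and 11.62 in CIA, and 11.85 and 12.28 in CIA+MLIF. The gap between the CIA arrays, 0.78, was close to the distance from CIA to CIA+MLIF. It fell by 1.17 in CIA (SE 0.26, limma adjusted p = 0.0150), and its change in CIA+MLIF against CIA was 0.84 (SE 0.26, 95% interval 0.25 to 1.43, adjusted p = 0.0631). Of the other sources of Fabp4, 2 of 16 macrophage markers passed as higher and 1 as lower in CIA against adjuvant, and of 18 endothelial markers 1 passed, as lower. Of all probe sets, 4.3% passed as higher and 14.2% as lower, and the falls of both lists did not exceed that share. The counts of both lists that passed varied with the array left out, as did the median change of all probe sets in CIA against adjuvant. It was -0.04 without CIA array 1 and -0.44 without CIA array 2. Fewer macrophage markers rose without either adjuvant array. The part of macrophages and endothelium in the values of Fabp4 was not tested. Pparg, the regulator of the adipocyte program, whose start site is printed above, read 8.79 and 9.06 in adjuvant, 8.80 and 8.80 in adjuvant+MLIF, 7.94 and 8.36 in CIA, and 8.74 and 8.75 in CIA+MLIF. Its fall in CIA was 0.78 (that is, a log2 change of -0.78, SE 0.18, adjusted p = 0.0179), and in CIA+MLIF against CIA it changed by 0.59 (SE 0.18, 95% interval 0.19 to 1.00, adjusted p = 0.0581).

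Of the 2 hormones, Adipoq (adiponectin, which raises insulin sensitivity) read 9.31 and 9.79 in adjuvant, 9.32 and 9.37 in adjuvant+MLIF, 8.21 and 8.89 in CIA, and 8.92 and 9.40 in CIA+MLIF. CIA array 2 (8.89) and CIA+MLIF array 1 (8.92) nearly met, and the adjuvant arrays were as far apart as those of CIA+MLIF. Its change was -1.0 (SE 0.26, adjusted p = 0.0308) in CIA against adjuvant and 0.61 (SE 0.26, 95% interval 0.01 to 1.21, adjusted p = 0.145) in CIA+MLIF against CIA. Lep (leptin, released in proportion to fat mass) read 7.28 and 7.18 in adjuvant, 7.07 and 7.03 in adjuvant+MLIF, 5.77 and 6.16 in CIA, and 7.39 and 7.41 in CIA+MLIF. Both CIA values lay under the median of the control entries on their own array (5.88 and 6.44), so how far it fell is poorly determined. As measured, the change was -1.26 (SE 0.17, adjusted p = 9.13e-04) in CIA against adjuvant and 1.43 (SE 0.17, adjusted p = 6.67e-04) in CIA+MLIF against CIA. The differences in size between the hormones, and between any of the 10 genes, were not tested.

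**Figure D2:**
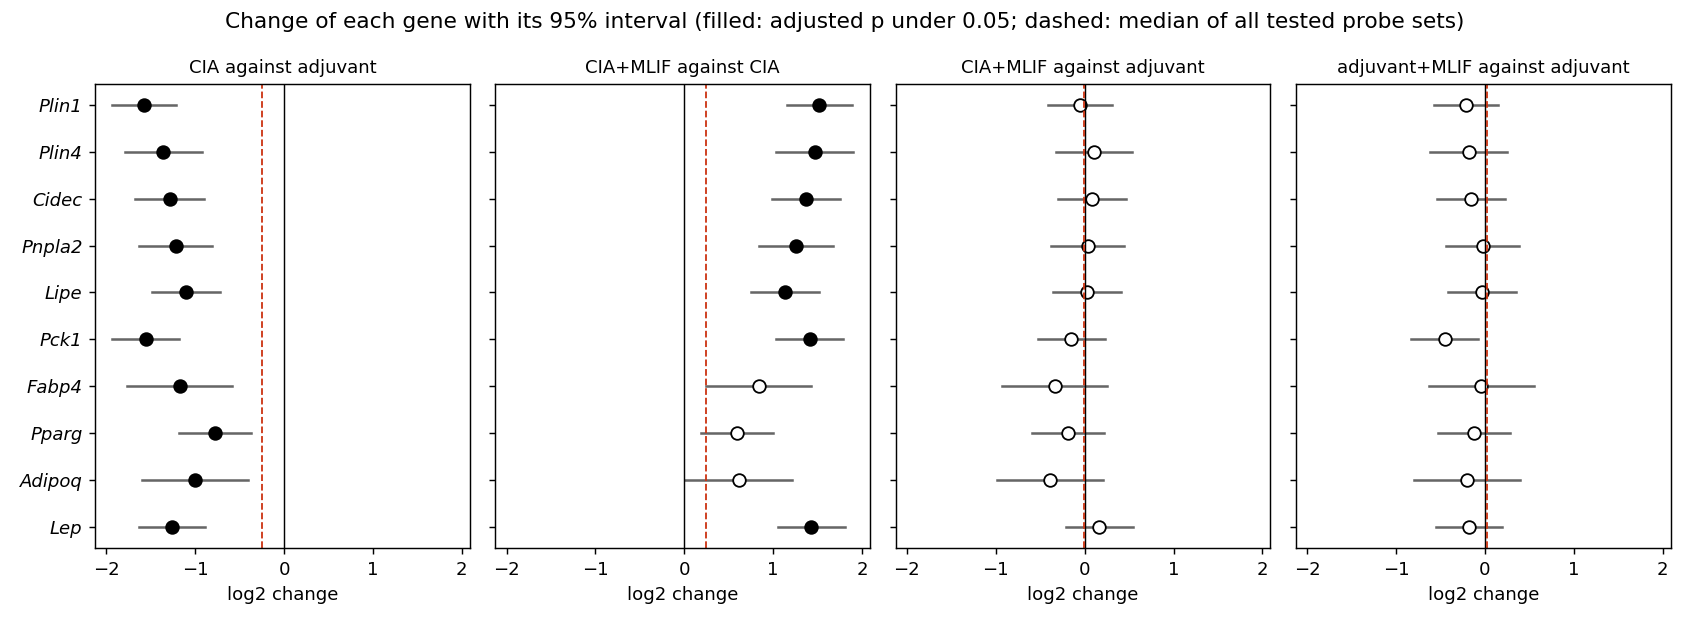
Log2 change of each gene (horizontal axis) with its 95% interval in 4 comparisons, filled where the limma adjusted p was under 0.05; the dashed line is the median change of all tested probe sets. In CIA against adjuvant all 10 points are filled (-1.57 to -0.78), in CIA+MLIF against CIA 7 are (1.13 to 1.52), and in the comparisons of CIA+MLIF and of adjuvant+MLIF with adjuvant none is.

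Relative to the shift of all probe sets, the median change of the 10 genes was -1.0 in CIA against adjuvant and 1.07 in CIA+MLIF against CIA. Both CIA arrays lay below all 6 others for 10 of 10 genes, and for 32% of all probe sets. With each array centred on its median this was again 10 of 10, and 21.4% of all probe sets. Taken relative to the array median, the mean of the 10 genes stood at 1.53 and 1.60 in CIA, 2.53 and 2.63 in adjuvant, 2.42 and 2.42 in adjuvant+MLIF, and 2.41 and 2.60 in CIA+MLIF. On this scale the CIA arrays were close to each other, although CIA array 1 was the dimmer array. After quantile normalization 10 of 10 passed in CIA against adjuvant, where 3951 of the 28944 probe sets passed as lower. In CIA+MLIF against CIA 9 passed, where 3318 of all passed as higher, with Fabp4 (adjusted p = 0.00749) and Pparg (adjusted p = 0.0120) added. Without CIA array 1, Adipoq changed by -0.66 in CIA against adjuvant, where the median of all probe sets was -0.04. Without CIA array 2, Fabp4, Pparg and Adipoq changed by 1.23, 0.80 and 0.95 in CIA+MLIF against CIA, where that median was 0.43. In CIA against adjuvant the same 3 changed by -1.33, -0.91 and -1.25 without adjuvant array 1. Without adjuvant array 2 they changed by -1.02, -0.64 and -0.76. Whether these 3 passed depended on the arrays used.

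Among the 3 groups other than CIA, no pair differed past the test for any of the 10 genes. In adjuvant+MLIF against adjuvant none of the 10 passed limma's test, as did none of the 28944 probe sets (0%), and of the 10, Pck1 had an unadjusted p under 0.05. The arrays of adjuvant+MLIF lay below both of adjuvant for 7 of the 10 genes, against 23% of all probe sets, with log2 changes of -0.02 (Pnpla2) to -0.45 (Pck1). In CIA+MLIF against adjuvant, 0 of 10 passed, against 0.833% of all probe sets, and none had an unadjusted p under 0.05. The log2 differences ran from -0.39 (Adipoq, 95% interval -0.99 to 0.21) to 0.17 (Lep, -0.21 to 0.54), and those of Plin1 (-0.41 to 0.31), Lipe (-0.35 to 0.41) and Pnpla2 (-0.38 to 0.45) had intervals that span 0. In CIA+MLIF against adjuvant+MLIF, 0 of 10 passed, against 0.729%, also with no unadjusted p under 0.05. Here Lep differed by 0.35 (95% interval -0.03 to 0.72) and Fabp4 by -0.30 (-0.89 to 0.29).

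Whether the response to MLIF differed between arthritic and adjuvant mice was tested as an interaction, the log2 change with MLIF in CIA minus that in adjuvant. It passed as higher for 7 of 10 genes, against 5.62% of all probe sets (7.24% in either direction). The largest were Pck1 with 1.86 (SE 0.23, limma adjusted p = 0.00168) and Plin1 with 1.73 (SE 0.23, adjusted p = 0.00204), followed by Plin4 with 1.65, Lep with 1.61 and Cidec with 1.53. Pnpla2 (1.28, adjusted p = 0.0169) and Lipe (1.16, adjusted p = 0.0190) did not pass with any 1 array of adjuvant, adjuvant+MLIF or CIA+MLIF left out (adjusted p 0.0749 to 0.107). Fabp4 (0.88, adjusted p = 0.212), Adipoq (0.81, adjusted p = 0.250) and Pparg (0.72, adjusted p = 0.140) did not pass. Without CIA array 2 their values were 1.27, 1.16 and 0.93. The median interaction of all probe sets was then 0.40, against 0.21 with all arrays, so the larger values are not particular to these genes.

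The wider fat program, in gene lists that leave out the 10 genes, moved in part with them. The part of skeletal muscle, whose markers are given below, in these lists was not tested. Of 20 measured adipogenic transcription factors, 10 fell in CIA and none rose, with a median change 0.23 below that of all probe sets (-0.23), and 7 were higher in CIA+MLIF than in CIA (median 0.22 above that of all probe sets). Of all probe sets, 14.2% fell and 4.3% rose in CIA, and 11.5% were higher and 3.25% lower with MLIF, which are the shares to set beside each list's counts. Ppargc1a, a coactivator of mitochondrial genes, changed by -1.59 and 1.62 in these comparisons, Ebf2, a factor of adipocyte precursors and brown fat, by -1.16 and 0.77, and Klf15, which is induced in adipogenesis, by -1.03 and 0.97. Cebpa, a partner of Pparg in adipocytes, did not pass in either (0.14 and -0.01, adjusted p = 0.549 and 0.964). Among others, Cebpb, Cebpd, Srebf1, Nr1h3 and Rxra of this list also passed in neither. Of 19 genes of lipolysis and its control, 8 fell and 8 were higher with MLIF (medians -0.27 and 0.16 relative to all probe sets). Among them were Slc2a4, the insulin-regulated glucose carrier of fat and muscle (-1.31 and 1.60), the carboxylesterases Ces1f (-1.13 and 0.97, under the control median on 1 array) and Ces1d (-0.91 and 1.17), and Aqp7, a glycerol channel (-1.13 and 0.96). Abhd5, the coactivator of Pnpla2, did not pass (0.19 and -0.04).

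Of 22 genes of triglyceride and fatty acid synthesis, 10 fell in CIA and 2 rose (median -0.17 relative to all probe sets; 14.2% of all probe sets fell), and in CIA+MLIF against CIA 13 were higher and 2 lower (0.34; 11.5% of all were higher). Lpin1, a phosphatidate phosphatase, changed by -1.53 and 1.67, Gpd1, which makes glycerol 3-phosphate, by -1.20 and 1.30, and Fasn, the fatty acid synthase, by -1.04 and 0.85. The 2 that moved the other way were the fatty acid elongases Elovl6 (1.74 and -1.56) and Elovl3 (2.59 and -2.85, under the control median on the 6 arrays outside CIA, so that these sizes are not well determined). Dgat1, which completes triglyceride, did not pass (0.31 and -0.37). Of 19 other droplet and lipid uptake genes, 4 fell (Fitm1, Lpl, G0s2 and Cd36) and 0 rose, and 2, Fitm1 and G0s2, were higher with MLIF. These counts are near the shares of all probe sets, 14.2% and 11.5%. Fitm1, a droplet-forming protein made mainly in muscle, changed by -1.48 and 1.57, and G0s2, an inhibitor of Pnpla2, by -0.80 and 0.88. After quantile normalization the list split into 5 higher and 4 lower in CIA, and before this step its median stood at -0.04 relative to all probe sets. The other perilipins, Plin2 (0.30), Plin3 (-0.28) and Plin5 (-0.49), did not pass in CIA against adjuvant (adjusted p = 0.205, 0.271 and 0.0772).

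Other adipokines did not follow Adipoq and Lep as a list: of 20 measured, 6 rose in CIA and 3 fell (median 0.27 above all probe sets), where 4.3% of all probe sets rose. In CIA+MLIF against CIA 3 were higher and 5 lower, where 3.25% of all probe sets were lower. Angptl4, an inhibitor of lipoprotein lipase, rose by 1.63 and was lower with MLIF by 1.33 (-1.33), and Lcn2, lipocalin 2, which neutrophils and epithelia also make, changed by 1.63 and -1.42. C1qtnf3, a relative of adiponectin, changed by 1.65 and -1.11. Serpina12 (vaspin), which skin also makes, changed by 2.49 and -0.60 and was under the control median on the 4 arrays of both adjuvant groups. The 3 that fell were Nnat (-0.98 and 1.00), Nampt (-0.94 and 0.84) and Sfrp5 (-0.57 and 0.67). Retn (resistin) did not pass (-0.61, adjusted p = 0.0503, and 0.53, adjusted p = 0.0871). Of 12 genes of adipokine reception, 4 fell and 2 rose in CIA (14.2% and 4.3% of all probe sets): Lepr, the leptin receptor, changed by -1.18 and 0.84, Prkaa2, the AMPK catalytic subunit typical of muscle, by -1.88 and 1.72, and Aplnr, the apelin receptor, by 1.00 and -1.04. The adiponectin receptors Adipor1 (-0.28 and 0.42) and Adipor2 (-0.15 and 0.13) did not pass. Cdh13 (-0.75 and 0.82) and Cmklr1 (-0.74 and 0.77), of the same list, passed in both comparisons.

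Of 14 brown and beige adipocyte genes, 6 fell in CIA and 1 rose (Elovl3), and 6 were higher and 1 lower with MLIF, beside 14.2% of all probe sets lower in CIA and 11.5% higher with MLIF. Among the falls in CIA, the respiratory subunits Cox7a1 (-1.73 and 1.59) and Cox8b (-1.68 and 1.63) were the largest. Both are also abundant in heart or skeletal muscle. The defining uncoupling protein Ucp1 (-0.66, adjusted p = 0.0579, and 0.64, adjusted p = 0.0732), Cidea (0.35 and -0.41) and Dio2 (0.18 and -0.14) did not pass. Of 14 progenitor genes, 2 fell (Ebf2 and Zfp423, -0.52) and 2 rose (Gata3, 1.14, and F3, 1.12) in CIA, with a median 0.29 above all probe sets; the share that fell is close to that of all probe sets (14.2%), and 4.3% of all rose. Some genes stand on more than 1 list, such as Ebf2, Ppargc1a and Elovl3.

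**Figure D3:**
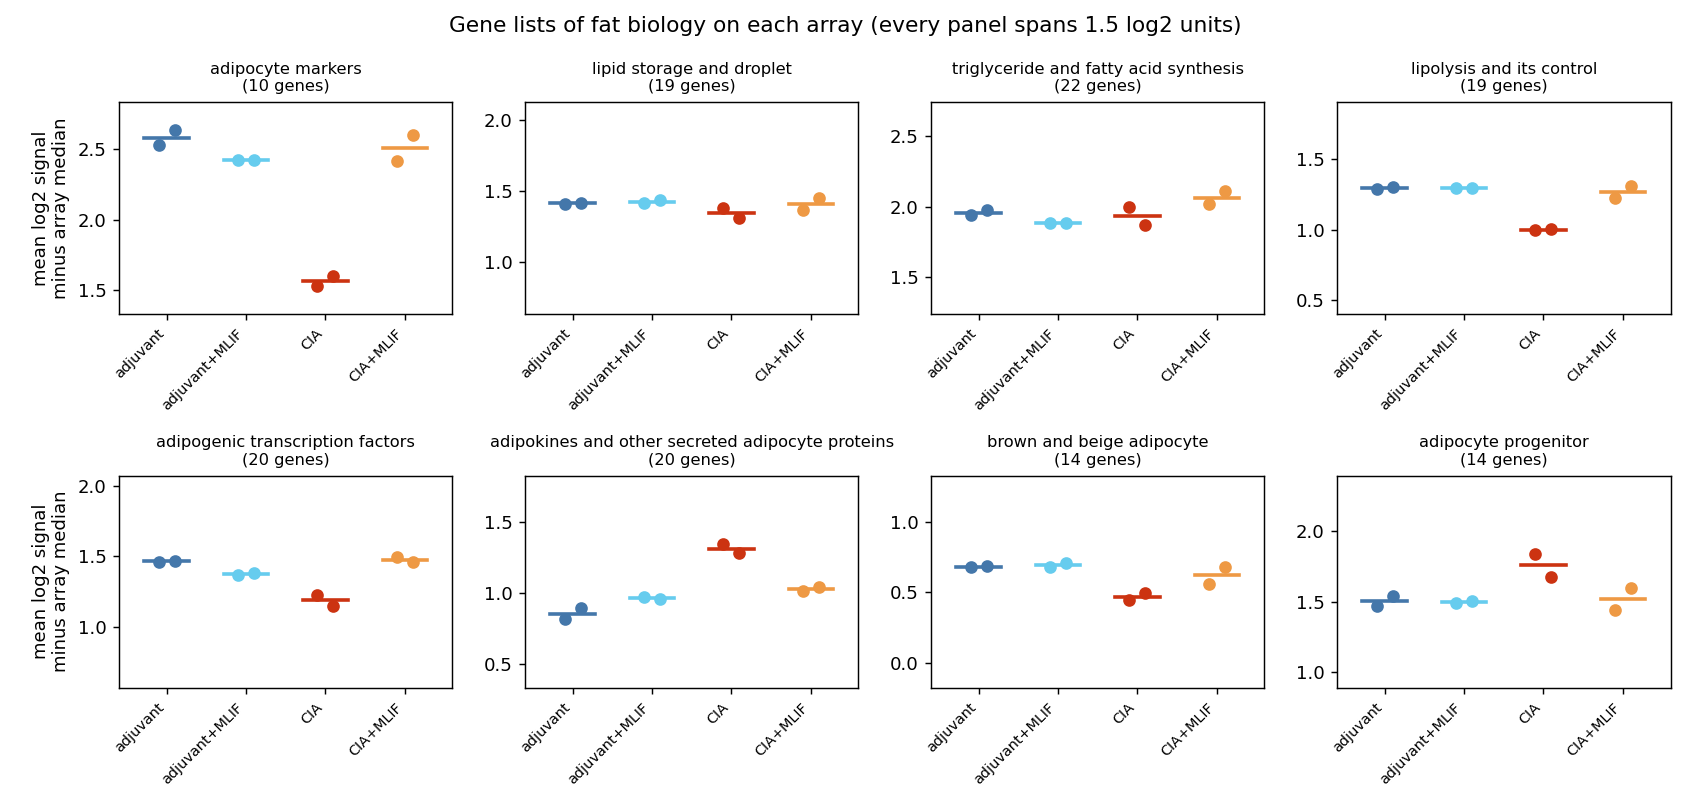
Mean log2 signal minus the array median (vertical axis, every panel 1.5 units high) for 8 lists of fat biology on each array (points) with the group mean (bar). The adipocyte markers are lowest on the CIA arrays (1.53 and 1.60), the other adipokines highest there (1.35 and 1.28), and the other droplet genes nearly level (1.31 to 1.45 on all arrays).

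These list counts rest on few arrays. They varied with the array left out, as did the counts of all probe sets. The median change of all probe sets in CIA against adjuvant was -0.25 and -0.24 without adjuvant arrays 1 and 2. It was -0.04 without CIA array 1 and -0.44 without CIA array 2. Relative to that median, transcription factors, lipolysis, synthesis and droplet genes stood at -0.37, -0.38, -0.30 and -0.11 without CIA array 1. Without CIA array 2 they stood at -0.13, -0.17, -0.06 and 0.11. Without adjuvant array 1 they stood at -0.23, -0.22, -0.19 and -0.07, and without adjuvant array 2 at -0.25, -0.26, -0.17 and -0.08. In CIA+MLIF against CIA the median change of all probe sets was 0.03 without CIA array 1 and 0.43 without CIA array 2. Relative to that median, lipolysis, synthesis and droplet genes stood at 0.32, 0.46 and 0.11 without CIA array 1. Without CIA array 2 they stood at 0.12, 0.31 and -0.06. Fewer lipolysis and synthesis genes were higher with MLIF without an array of either adjuvant group, as among all probe sets. More droplet genes rose in CIA without CIA array 1, as among all probe sets. The falls of the adipokines in CIA, and their rises and falls with MLIF, also varied with the array left out. Without CIA array 2 more adipokines fell in CIA and more rose with MLIF, as among all probe sets. The falls of the reception and progenitor genes in CIA varied likewise. So did the rises of the brown and beige genes in CIA and with MLIF. The progenitor falls, and the brown and beige rises with MLIF, were more numerous without CIA array 2, as among all probe sets.

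Markers of other tissues moved beside the adipocyte genes. Of all probe sets, 14.2% fell and 4.3% rose in CIA, and 11.5% were higher and 3.25% lower with MLIF. All 25 skeletal muscle markers fell in CIA and all 25 were higher in CIA+MLIF than in CIA (medians -1.16 and 1.17 relative to all probe sets, beside -1.0 and 1.07 for the adipocyte genes). Their mean minus the array median was 3.75 to 3.93 in CIA and 4.91 to 5.21 on the other 6 arrays, with no marker under the control median on any array. Myl2, the ventricular and slow-fibre myosin light chain, changed by -2.61 and 2.39, and Myh7, the slow myosin heavy chain, by -2.56 and 2.43. Markers of skin and of inflammation moved the other way. Of 18 epidermal markers 17 rose in CIA, with means of 3.23 to 3.41 in CIA, 2.13 to 2.28 in CIA+MLIF and -0.90 to -0.83 in both adjuvant groups, where 9 to 11 of the 18 were under the control median. Unlike the adipocyte genes, the epidermal mean in CIA+MLIF did not lie among the values of the adjuvant groups. Of 15 neutrophil markers 14 rose in CIA and 14 were lower with MLIF (means 2.25 to 2.40 in CIA, 0.10 to 0.79 on the others). Of 12 fibroblast and synovial markers 8 rose and 1 fell (means 4.54 to 4.77 in CIA, 3.59 to 3.88 on the others). Fewer of them rose without adjuvant array 1, as among all probe sets.

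Sebaceous glands, which use Pparg and many lipid genes, did not fall as a list: of 14 measured markers 7 rose in CIA and 2 fell (Mc5r and Pparg itself). The list's mean was 0.90 to 1.02 in CIA and -0.06 to 0.06 on the other arrays, where 6 of the 14 were under the control median. Far2 (2.82 and -2.81, under the control median on the 6 arrays outside CIA) and Krt79 (2.77 and -2.16) led it together with Elovl3. Of all probe sets, 14.2% fell and 4.3% rose in CIA. The falls in the sebaceous list, and in the bone and red cell lists that follow, were near that share. Of 11 bone and cartilage markers 2 rose and 2 fell in CIA (means 2.81 to 2.96 in CIA, 2.48 to 2.80 on the others). Of 8 measured markers of red cell precursors and marrow 2 rose and 1 fell (0.21 to 0.23 in CIA, -0.32 to -0.13 on the others), with 3 of the 8 under the control median on every array. The counts of these 3 lists varied with the array left out, as did the median change of all probe sets in CIA against adjuvant. It was -0.04 without CIA array 1 and -0.44 without CIA array 2. The means of the macrophage list were 2.33 to 2.43 in CIA and 1.95 to 2.21 on the others, and those of the endothelial list 1.72 to 1.84 and 1.48 to 1.61. The part of a changed mix of tissues in the fall of the adipocyte genes was not tested.

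**Figure D4:**
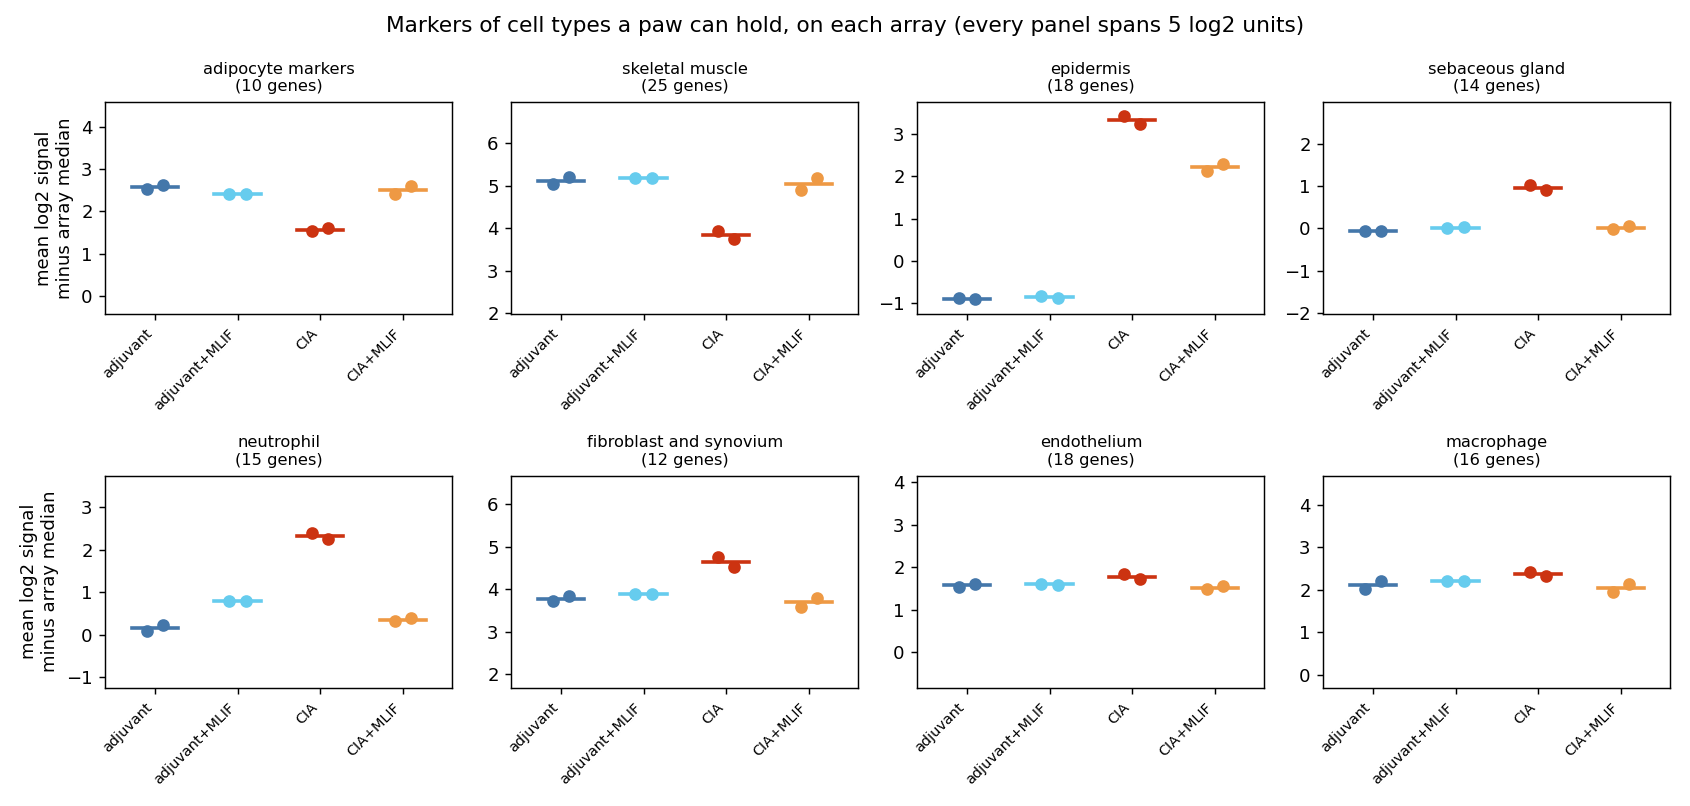
Mean log2 signal minus the array median (vertical axis, every panel 5 units high) of marker lists for cell types a paw can hold, on each array (points) with the group mean (bar). Adipocyte and skeletal muscle markers are lowest in CIA, while epidermal, sebaceous, neutrophil and fibroblast markers are highest there, and the epidermal mean remains raised in CIA+MLIF (2.13 and 2.28).

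Across the 8 arrays, each adipocyte gene was compared with the mean of the other 9, all centred on the array median. Pearson's r was 0.993 for Plin1, 0.986 for Cidec, 0.983 for Lipe, 0.982 for Pnpla2, 0.981 for Plin4, 0.963 for Pck1, 0.954 for Lep, 0.924 for Pparg, 0.876 for Fabp4 and 0.789 for Adipoq. The points share the low CIA arrays, so these values describe the set and carry no test. Of 10444 other genes with a mean signal above the median, the 8 closest to the mean of the 10 were Inmt (r = 0.996), Ankrd23 and Gnpat (both 0.994), Ubxn2a (0.994), Asb16 (0.993), Smyd1 (0.993), Synrg (0.992) and Nipsnap2 (0.992). Inmt, an indolethylamine methyltransferase, changed by -2.28 in CIA against adjuvant and by 2.35 in CIA+MLIF against CIA. Ankrd23 (-1.51 and 1.52), an ankyrin repeat protein of the muscle sarcomere, and Smyd1 (-1.83 and 1.71), a methyltransferase of developing muscle, are known from muscle rather than fat. Gnpat (-0.85 and 0.84), which starts ether lipid synthesis in peroxisomes, was the closest gene with a role in lipid synthesis among the 8.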

How the data were processed

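Labels were read for the design, and 1 table of log2 values per array was used. It was deposited by the authors as log2 signals, a unit read from its values (1.84 to 14.9). RNA (300 ng) was labelled with biotin per the labels' protocols; the software for summary, background and normalization is not given in the sources used here. Of 35557 entries, 6613 in an unbroken run of identifiers without annotation were taken as array controls, and 28944 probe sets were tested (21789 with 1 symbol, 1621 with several, 5534 with none). Group means were fitted to all 8 arrays with limma 3.58.1 (R 4.3.3; lmFit, eBayes, 4 residual degrees of freedom, 4.97 prior), with two-sided p-values adjusted by Benjamini and Hochberg. The precision is limited by 2 arrays per group. The fit was tested on simulated data. The 10 genes and the 18 gene lists (310 members, 287 measured) were chosen with earlier results of these data known. Named list members are the 2 largest rises and the 2 largest falls that passed in each of the comparisons CIA against adjuvant and CIA+MLIF against CIA; other list genes were named with their values known. The genes of likest pattern have 1 symbol, a mean signal above the median and no clone or model name. Alternatives were quantile normalization, median centring, no dim probe sets (lowest of 3 equal parts), a variance with trend and robust estimation, a fit without the groups not compared, array weights, a replicate block, the mean of a gene's probe sets, the adjuvant+MLIF arrays averaged, each array left out, and quantile normalization without CIA array 1. Promoters were read from RefSeq windows.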

Additional observations from a re-analysis of the deposited data

Results flagged for a closer look

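For 7 of the 10 adipocyte genes the response to MLIF differed between arthritic and adjuvant mice by limma's interaction test, where 5.62% of all probe sets passed as higher. Whether Lipe and Pnpla2 passed depended on the arrays used, as given above. The log2 change with MLIF in CIA minus that in adjuvant was 1.73 for Plin1, 1.65 for Plin4, 1.53 for Cidec, 1.61 for Lep, 1.16 for Lipe, 1.28 for Pnpla2 and 1.86 for Pck1. In adjuvant mice none of the 7 changes with MLIF passed, and for all 7 the arrays of adjuvant+MLIF lay below those of adjuvant, so that the interaction exceeds the change within CIA. These changes ran from -0.02 (Pnpla2) to -0.45 (Pck1), and 23% of all probe sets lay below in this way.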

How the results depend on the processing

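No change of the 10 genes in the interaction, in CIA against adjuvant or in CIA+MLIF against CIA turned its direction under any of the alternatives run. In CIA against adjuvant 7 to 10 genes passed, with 7 under array weights, where Fabp4, Pparg and Adipoq did not pass (adjusted p = 0.0708, 0.121 and 0.186). With only the groups compared in the limma fit, Pparg did not pass (adjusted p = 0.0675). With all 8 arrays in the fit, 7 to 9 passed in CIA+MLIF against CIA: 9 without dim probe sets and with a trended variance, and 8 after median centring. The interaction then gave 7 to 9, with 9 after quantile normalization. With the adjuvant+MLIF arrays averaged as 1, the interaction of Lipe (1.16) and Pnpla2 (1.28) did not pass. In adjuvant+MLIF against adjuvant, 1 gene, Pck1, passed with array weights (-0.45, adjusted p = 0.00817; its adjusted p reached 1.00 in others). The median of the 10 genes relative to all probe sets was -1.09 after quantile normalization in CIA against adjuvant and -0.08 without adjuvant array 2 in adjuvant+MLIF against adjuvant. Replicate numbers are shared between groups as numbers alone: deviations of same-numbered arrays correlated at -0.11 to 0.39. A fit with the replicate number as a block gave 10, 8 and 7 passing genes in CIA against adjuvant, in CIA+MLIF against CIA and in the interaction, with Fabp4 added in CIA+MLIF (adjusted p = 0.0310). Leaving an array out leaves its group with 1, assumed to vary like the others. Lep lay at background in CIA, which limits the size of its change.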
